A study of Homo sapiens with 4 samples.

Results

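The 10 genes of lipid absorption and lipoprotein assembly followed were SCARB1, FABP1, FABP2, MOGAT2, DGAT1, MTTP, APOB, APOA1, APOA4 and APOC3. They were read from every probe set, a group of array probes for one transcript, that the platform annotation gives to exactly 1 of these symbols. This took in 20 of the 41097 probe sets with 1 gene, and 10 of 19775 genes; 0 further probe sets named a member together with another gene. The study compared 2 pairs of modified human colorectal cancer lines with 1 array each, so the 4 groups are LS174T-siCDX1 with its control LS174T-siVec, and HCT116-CDX1 with its control HCT116-Vec. HCT116 is a colorectal carcinoma line and LS174T a mucin-forming colon adenocarcinoma line. The titles were read as a vector control and added CDX1 in HCT116, and as a silencing-vector control and silenced CDX1 in LS174T. The labels do not state the constructs, the time of harvest or whether each line was 1 clone. The homeobox protein CDX1 acts as a transcription factor in gut epithelium, and the series asked about its control of cytokeratin 20.

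In the small intestine, fatty acids and monoglycerides from the meal enter the enterocyte, where fatty acid binding proteins carry them and acyltransferases rebuild triglyceride in the endoplasmic reticulum. The microsomal triglyceride transfer protein, the product of MTTP, then loads this triglyceride onto apolipoprotein B to form chylomicrons, which also carry apolipoproteins A-I, A-IV and C-III. Normal colon takes up little fat, but colorectal cancer lines can express parts of this enterocyte programme.

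Levels are RMA expression values on the log2 scale, in which a difference of 1 is 2-fold. Each group is 1 array, so there are no replicates and no SD, and precision is limited by how few arrays there are. A gene was taken as measured in a comparison where its level was at least 6 on the brighter of the arrays compared, and "rose", "fell", "higher" and "lower" are used as calls only for measured genes that differed at least 2-fold. The probe set brightest on average stood for its gene, and levels are compared between arrays, not between genes.

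The labels were first set against CDX1 and KRT20. CDX1, read by 1 probe set, stood at 8.21 in HCT116-Vec and 8.24 in HCT116-CDX1, and it was 10.46 in LS174T-siVec against 9.06 in LS174T-siCDX1. CDX1 thus fell in the LS174T pair but was not raised on the array labelled HCT116-CDX1, so the direction of that pair is taken from its title. Whether the probe set can read the introduced CDX1 was not determined here. KRT20, which encodes cytokeratin 20, went from 6.36 to 9.38 in the HCT116 pair and from 8.15 to 5.45 in the LS174T pair. Of 8 markers of colorectal epithelium 8 were at or above 6 on every array, with CDH17 lowest in HCT116-Vec at 6.19. Of 30 markers of hepatocytes, fibroblasts, leukocytes, endothelium and adipocytes 23 also reached 6 on their brightest array, so a level above 6 is no proof of expression, and 7 reached 8.

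Among the members, MTTP and FABP1 set the vector arrays apart. Both were higher in LS174T-siVec than in HCT116-Vec, FABP1 by only 1 of its 2 probe sets. MTTP was below the floor in LS174T-siCDX1, and FABP1 was not. SCARB1 and DGAT1 were well above the floor on all arrays and differed by less than 2-fold. FABP2, MOGAT2, APOB, APOA1, APOA4 and APOC3 stayed at 7.35 or below on every array. The upstream sequences of MTTP and FABP1 are shown because these are the 2 members that differed at least 2-fold between arrays compared. They are the 250 bases before each start site listed by RefSeq on build GRCh38.p14, 5' to 3' on the strand of the gene, and MTTP has 2 listed starts, 10694 bases apart. Capitals mark matches to any of the motifs named in the next paragraph. The upstream MTTP start has the window chr4:99563880-99564129 on the plus strand, and the downstream start, inside the annotated span of the gene, has chr4:99574574-99574823. The FABP1 window is chr2:88128063-88128312 on the minus strand.
MTTP upstream start: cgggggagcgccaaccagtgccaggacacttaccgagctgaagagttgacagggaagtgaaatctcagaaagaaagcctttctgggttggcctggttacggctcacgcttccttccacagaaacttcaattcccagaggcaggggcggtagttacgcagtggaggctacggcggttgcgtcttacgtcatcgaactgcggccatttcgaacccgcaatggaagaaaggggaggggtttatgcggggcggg
MTTP downstream start: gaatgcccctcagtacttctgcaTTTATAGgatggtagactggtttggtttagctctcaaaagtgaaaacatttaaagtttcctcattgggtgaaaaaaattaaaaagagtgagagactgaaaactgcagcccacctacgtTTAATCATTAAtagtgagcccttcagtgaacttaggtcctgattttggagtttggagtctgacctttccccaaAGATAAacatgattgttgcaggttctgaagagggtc
FABP1: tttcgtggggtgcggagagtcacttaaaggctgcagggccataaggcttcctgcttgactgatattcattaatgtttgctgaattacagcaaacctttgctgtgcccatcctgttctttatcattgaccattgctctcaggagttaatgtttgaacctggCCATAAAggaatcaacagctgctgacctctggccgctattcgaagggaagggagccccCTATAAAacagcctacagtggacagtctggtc

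Exact matches were sought on both strands for 8 motifs. Windows were at hand for 4 of the 10 members, MTTP, FABP1, FABP2 and APOA4, so the other members were not searched. TTTATTG is a CDX site. TTTATGG is another CDX site. CAAAGTCCA is an HNF4 site, a further motif of 10 letters is an HNF1 site, AGATAA is a GATA site, and TATAAA is the TATA box. The shorter core of the HNF1 site, TTAATNATT, was added after the sequences were seen, and so was TTTATNG, a CDX site with a free base that takes in both CDX sites and overlaps the TATA box on the opposite strand. The FABP1 window held TTTATGG on the opposite strand, 90 to 84 bases before the start, a motif that 2.3% of 35116 windows of this length hold, and a TATA box 31 to 26 bases before the start, which 10.7% hold. TTTATNG matched there at 90 to 84 too, and again on the opposite strand 32 to 26 bases before the start, over the TATA box. The window of the downstream MTTP start held AGATAA 36 to 31 bases before it, found in 9.17% of windows, and the HNF1 core on both strands, overlapping, 109 to 99 bases before it, found in 1.17%. It also held the TATA box letters on the opposite strand and TTTATNG, found in 8.93%, together at 227 to 221 bases before the start. The upstream MTTP window and the APOA4 window held none of the 8 motifs, and the FABP2 window held AGATAA 42 to 37 bases before its start. The GC content was 57.2% and 40% in the upstream and downstream MTTP windows and 48% for FABP1, beside a median of 58% over all windows. A match describes the letters only, and which MTTP start was used was not determined here.

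**Figure D1:**
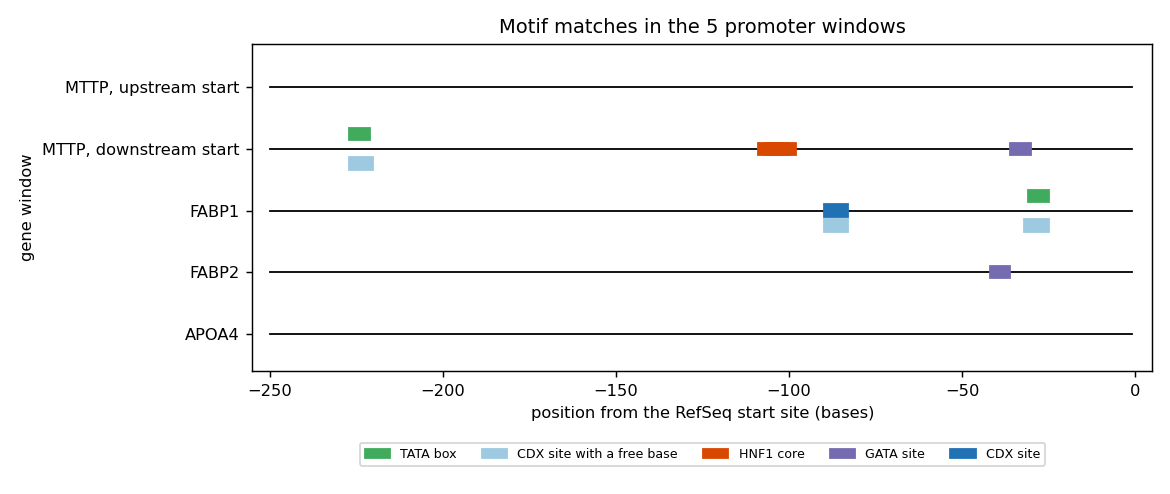
Positions of motif matches in the 250 bases before 5 start sites of 4 members; the horizontal axis is the distance from the start site in bases, each line is a window and each coloured box a match. Boxes above, on or below a line are moved apart only for legibility. The downstream MTTP window and the FABP1 window hold matches, and the upstream MTTP and APOA4 windows hold none.

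MTTP encodes the large subunit of the microsomal triglyceride transfer protein and was read by 1 probe set. Its level was 4.81 in HCT116-Vec, 4.81 in HCT116-CDX1, 8.14 in LS174T-siVec and 4.96 in LS174T-siCDX1. The LS174T-siVec array was above the floor, and the other 3 lay together below it, with no clear signal. Between LS174T-siVec and LS174T-siCDX1 it fell by 3.18, 9.06-fold as read and at least 4.4-fold against a level of 6. It was 3.32 higher in LS174T-siVec than in HCT116-Vec, also at least 4.4-fold. In the LS174T pair 1 of 9 measured members fell and 0 rose, beside 1.25% and 0.598% of all 16896 measured genes. In the HCT116 pair MTTP was not measured. Of the markers of colorectal epithelium 8 of 8 also lay below 0 in the LS174T pair, from -1.69 to -0.04 with a median of -0.72. KRT19 at -1.69 and KRT8 at -1.49 fell (the second KRT19 probe set stood at 0.19). The summed linear level of the 8 went from 41247 in LS174T-siVec to 24582 in LS174T-siCDX1, against 32913 in HCT116-Vec and 38807 in HCT116-CDX1. In the HCT116 pair, where MTTP was below the floor on both arrays, 7 of these 8 markers lay above 0, with a median of 0.30. Their part in the MTTP result was not tested. In bulk RNA, fewer cells with a transcript and less of it per cell cannot be told apart.

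APOB encodes the structural protein of chylomicrons and other low-density particles onto which that transfer protein loads lipid. Its brighter probe set read 5.50 in HCT116-Vec, 5.62 in HCT116-CDX1, 5.74 in LS174T-siVec and 5.68 in LS174T-siCDX1. Its other probe set read 5.44, 5.64, 5.51 and 5.59 in the same order. APOB was therefore below the floor on every array by both probe sets, also in LS174T-siVec where MTTP read 8.14. P4HB, the protein disulfide isomerase that is the small subunit of the transfer protein and was singled out for that role, stood at 12.93, 13.06, 12.89 and 12.62. It did not follow MTTP: its difference in the LS174T pair was -0.27.

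FABP1 encodes the liver fatty acid binding protein, an abundant carrier of long-chain fatty acids in hepatocytes and enterocytes. Its brighter probe set read 6.05 in HCT116-Vec, 5.91 in HCT116-CDX1, 10.25 in LS174T-siVec, with 10.03 in LS174T-siCDX1. By this probe set both LS174T arrays stood far above both HCT116 arrays. The difference between the vector arrays was 4.20, or 18.4-fold, and the differences within the pairs were -0.14 in HCT116 and -0.22 in LS174T. The second FABP1 probe set gave a much smaller contrast, with 6.64 and 6.59 in HCT116-Vec and HCT116-CDX1 and 7.13 in both LS174T arrays, 0.49 between the vector arrays. The brighter one belongs to the kind marked as shared between transcripts, and without such probe sets FABP1 was not called.

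In the comparison of the vector arrays, which asks how the lines differ before the modification, 2 of 9 measured members were higher in LS174T-siVec and 0 were lower, beside 6.03% and 7.33% of 17043 genes. FABP1 had the 54th highest difference of those genes. Cell line and kind of vector cannot be told apart here. A limma fit of all 4 arrays on cell line and CDX1 label, which has 1 residual degree of freedom, gave FABP1 4.16 higher in LS174T than in HCT116 (SE 0.17, Benjamini-Hochberg adjusted p = 0.00105 over 17280 genes). It was the member of 9 tested that passed an adjusted p of 0.05, beside 16.1% of all genes. MTTP gave 1.73 (SE 0.77, adjusted p = 0.221) and DGAT1 0.45 (SE 0.15, adjusted p = 0.128). For the CDX1 label in that limma fit, 0 of 9 members and 0% of all genes passed, 0 members and 518 genes had an unadjusted p under 0.05, and MTTP was at 1.59 (SE 0.77, adjusted p = 0.999). The fit takes the arrays of a line as replicates, although they are modified derivatives of 1 line.

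**Figure D2:**
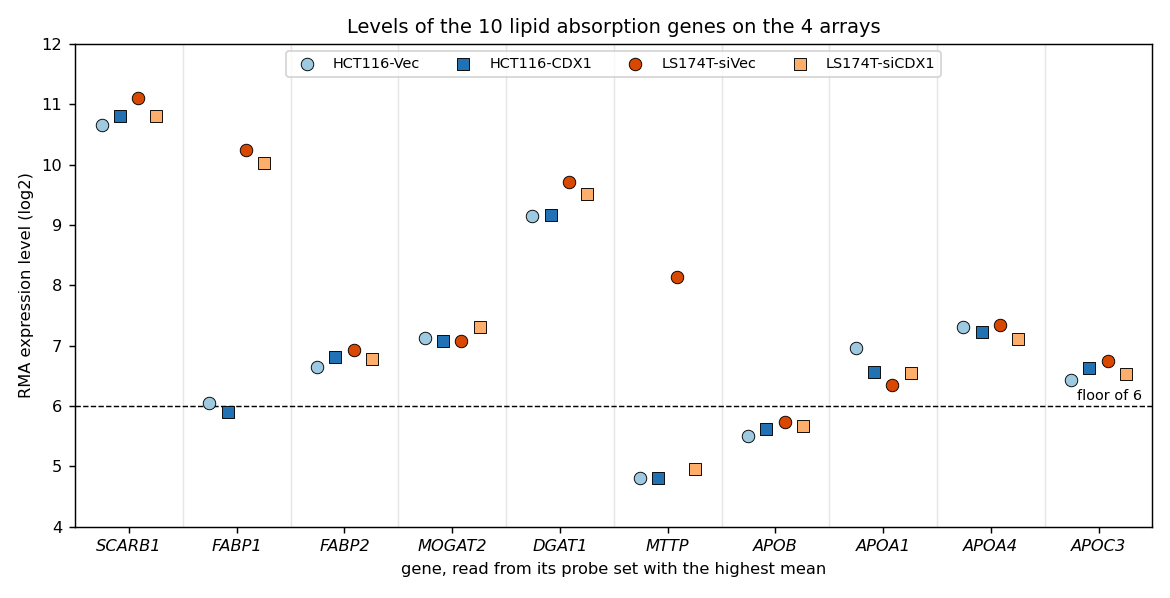
Level of each member gene (vertical axis, RMA log2) on the 4 arrays, each point 1 array, read from the probe set brightest on average; the dashed line is the floor of 6. FABP1 is at 10.25 and 10.03 on the LS174T arrays against 6.05 and 5.91 on the HCT116 arrays, and MTTP is above the floor in LS174T-siVec alone.

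FABP2 encodes the intestinal fatty acid binding protein, a marker of small-intestinal enterocytes and a relative of FABP1. It read 6.65 in HCT116-Vec, 6.81 in HCT116-CDX1, 6.93 in LS174T-siVec and 6.79 in LS174T-siCDX1. The 4 levels spanned 0.28, and 26.2% of the 17280 genes with a brightest level of at least 6 had a smaller span. Between the vector arrays FABP2 differed by 0.28, beside 4.20 and 0.49 for the 2 FABP1 probe sets.

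SCARB1 encodes scavenger receptor class B type I, a receptor for high-density lipoprotein that also sits on the brush border. It read 10.66 in HCT116-Vec, 10.81 in HCT116-CDX1, 11.10 in LS174T-siVec and 10.80 in LS174T-siCDX1. LS174T-siVec was the highest array, and the other LS174T array lay next to HCT116-CDX1. All 5 SCARB1 probe sets were below 0 in the LS174T pair, from -0.30 to -0.12, and all 5 were above 0 between the vector arrays, from 0.08 to 0.44, also after quantile normalization and with equal array medians. Both comparisons use the LS174T-siVec array, with opposite sign, so they are not separate evidence. The 5 probe sets read the same RNA on each array and are not replicates. None of these reached 2-fold, and in the HCT116 pair 4 were above 0 and 1 below.

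MOGAT2 and DGAT1 act in sequence, the first adding an acyl chain to monoglyceride and the second completing the triglyceride. DGAT1 read 9.14 in HCT116-Vec, 9.17 in HCT116-CDX1, 9.71 in LS174T-siVec and 9.51 in LS174T-siCDX1. Its levels spanned 0.57, less than 2-fold. MOGAT2 read 7.13, 7.09, 7.08 and 7.31 in the same order, and its other probe set 6.41, 6.68, 6.66 and 6.63. MOGAT2 did not separate the lines. DGAT2, which encodes the other acyltransferase of the last step and is the neighbour of MOGAT2 on chromosome 11, was higher by 1.54 in LS174T-siVec than in HCT116-Vec, and its second probe set by 2.37.

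APOA4, APOC3 and APOA1 lie side by side on chromosome 11 and encode apolipoproteins of chylomicrons and high-density lipoprotein: A-I is the main protein of the latter, A-IV is made by enterocytes in response to fat, and C-III inhibits the breakdown of triglyceride-rich particles. APOA4 read 7.31 in HCT116-Vec, 7.22 in HCT116-CDX1, 7.35 in LS174T-siVec and 7.11 in LS174T-siCDX1. APOC3 read 6.43, 6.64, 6.74 and 6.54 in that order. APOA1 read 6.95, 6.57, 6.35 and 6.54, with HCT116-Vec highest. None of the 3 neighbours reached 2-fold in any comparison. In the LS174T pair and between the vector arrays APOA4 (-0.24 and 0.04) and APOC3 (-0.20 and 0.31) had the signs of MTTP. APOA1 (0.19 and -0.60) had the opposite signs. The 3 APOA1 probe sets disagreed on the vector arrays, at -0.60, -0.04 and 0.33, and the fainter APOC3 probe set stayed between 5.53 and 5.66. Hepatocyte markers, of cells that make these apolipoproteins in bulk, included 7 measured genes in the LS174T pair with 0 changed, and ALB lay between 5.67 and 6.07.

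Taking the members as a list, in the HCT116 pair 0 of 8 measured members changed, beside 1.89% of 16914 genes, with a median of -0.01 and -0.01 over all genes. In the LS174T pair the median was -0.21 with 7 of 9 below 0, beside -0.01 and 51.2% below 0 for all genes. Of the 20 probe sets, measured or not, 15 were below 0, beside 48.6% of all probe sets. SCARB1 alone gave 5 of these 15, and probe sets of the same gene are not replicates. Between the vector arrays the median was 0.31 with 7 of 9 above 0 and 2 below, beside 0.01 and 49.2% below 0 for all genes. The same members make up both counts of 7, and LS174T-siVec enters both comparisons with opposite sign, so the counts are not separate evidence. Of the 10 members the 8 other than MTTP and FABP1 had a span of 0.23 to 0.60 over the 4 arrays, and the median span was 0.48 over all genes with a brightest level of at least 6. Spike-in control probe sets, 18 in number, differed by up to 0.349 in the HCT116 pair, 0.17 in the LS174T pair and 0.356 between the vector arrays, where the members other than MTTP and FABP1 differed by up to 0.39, 0.30 and 0.60.

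**Figure D3:**
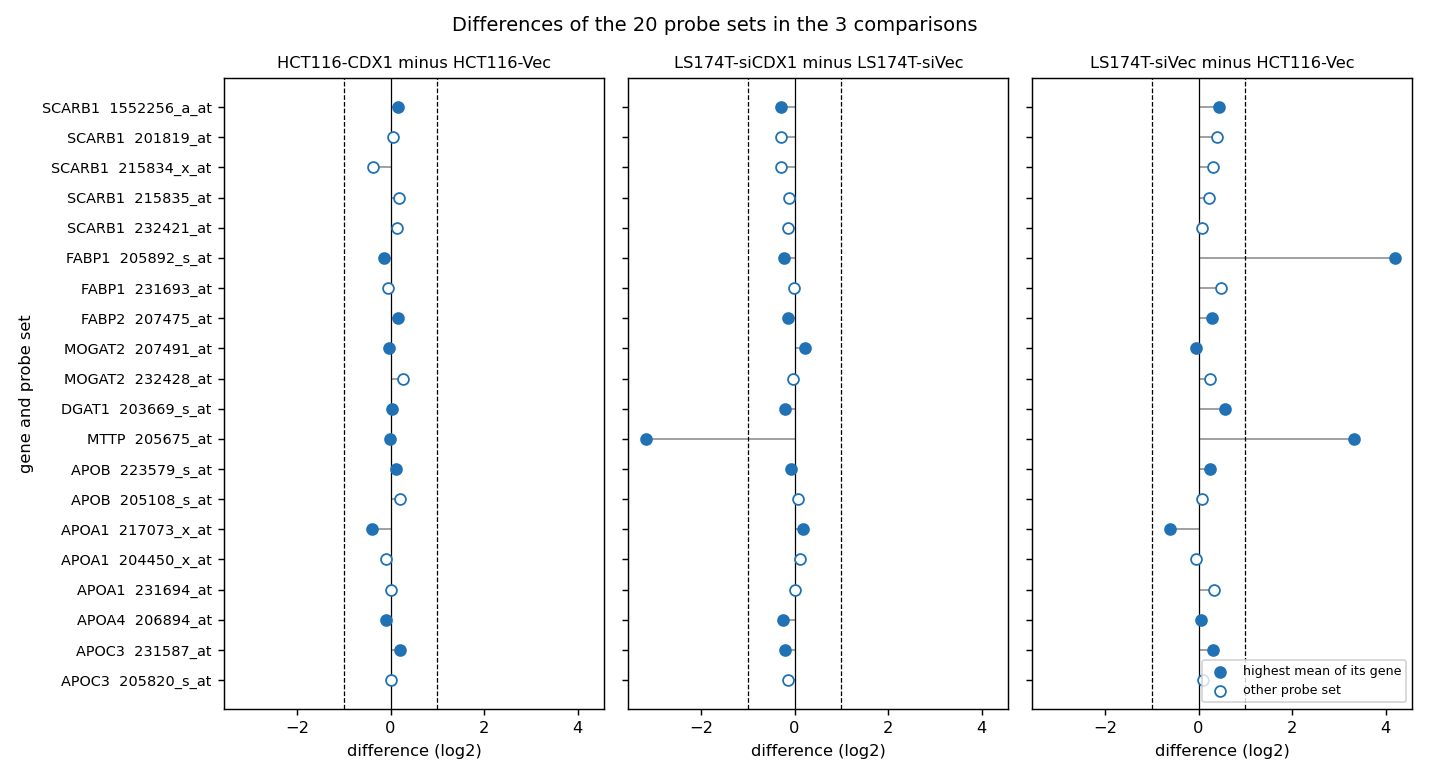
Difference in log2 level (horizontal axis) of each of the 20 probe sets in the HCT116 pair, the LS174T pair and between the vector arrays; filled points are the probe set that stands for its gene, open points the others, and dashed lines mark 2-fold. The points beyond the lines are MTTP at -3.18 in the LS174T pair and MTTP at 3.32 and 1 of the 2 FABP1 probe sets at 4.20 between the vector arrays.

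The genes whose 4 levels, centred on their mean, lay nearest to those of MTTP among 17279 genes were CEACAM6, CLDN2 and CHIC1, at Euclidean distances of 0.14, 0.42 and 0.52 over the 4 arrays. The MTTP levels of 3 arrays lay below the floor, so the distances and their order rest in part on readings without a clear signal. CEACAM6, an adhesion molecule of the carcinoembryonic antigen family, read 7.35 in HCT116-Vec, 7.51 in HCT116-CDX1, 10.82 in LS174T-siVec and 7.52 in LS174T-siCDX1. CLDN2, a pore-forming tight junction protein, read 7.31, 6.97, 10.59 and 7.70 in that order. Both were highest in LS174T-siVec, as MTTP was, which follows from their choice by distance to MTTP. With 4 arrays the likeness is a description.

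**Figure D4:**
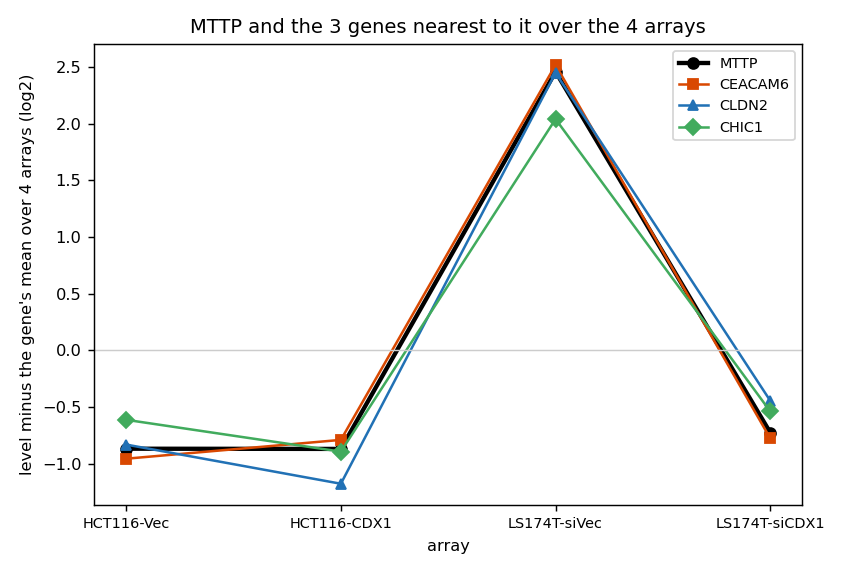
Level minus the gene's own mean over the 4 arrays (vertical axis, log2) for MTTP and its 3 nearest genes, with 1 point per array. CEACAM6 lies at a distance of 0.14 from MTTP. All 4 genes peak in LS174T-siVec, which follows from the choice by distance.

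The rest of the lipid pathway was described through 6 lists of 102 genes, of which 89 were read. The lists were chosen with earlier results of these data known, and CDX1 itself is one of the listed regulators. Counts of called list genes beside the shares over all genes are therefore descriptions, in this and the other comparisons. Of 84 measured pathway genes in the LS174T pair 4 fell and 0 rose, beside 1.25% and 0.598% of all genes; the median was -0.06, beside -0.01. CLU, an apolipoprotein-like chaperone also called apolipoprotein J, fell by 1.91, from 8.33 to 6.42, MGLL, the lipase that frees fatty acid from monoglyceride, fell by 1.71, from 9.02 to 7.30, and PLIN3, a lipid droplet coat protein, fell by 1.65, from 9.05 to 7.41. The fourth was CDX1, the gene silenced in this pair by title. The lists of uptake, with 12 measured genes, of triglyceride and cholesteryl ester synthesis with 13, and of lipoprotein assembly with 13 held 0 called genes. The second MGLL probe set stood at -2.42, and of the 3 other CLU probe sets 1 was called alike.

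In the HCT116 pair 4 of 85 measured pathway genes rose and 3 fell on the array labelled HCT116-CDX1, beside 155 that rose and 164 that fell of all 16914 genes, with a median of 0.01. TMEM41B, an endoplasmic reticulum lipid scramblase needed for lipoprotein secretion, rose by 1.55, from 10.59 to 12.14. Among the enzymes that activate long-chain fatty acids, ACSL1 rose by 1.43, from 7.72 to 9.15, while ACSL5, the form typical of intestine, fell by 1.32, from 11.73 to 10.41. The other probe set of each of these 3 genes was called alike. GPAT3, a glycerol-3-phosphate acyltransferase, fell by 1.30 and CLU by 1.17, with the other CLU probe sets from -1.02 to 0.17. Of the regulators, NR5A2, a nuclear receptor of gut and liver, rose by 1.39, and PPARA, the receptor that drives fatty acid oxidation, by 1.09, although 0 of the 8 other PPARA probe sets were called. Of 14 lipid droplet genes 0 changed.

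Between the vector arrays 15 of 86 measured pathway genes were higher in LS174T-siVec and 6 lower, beside 6.03% and 7.33% of all genes, with a median of 0.15. The number lower is near its share over all genes. Of the regulators 8 of 21 were higher and 1 lower: GATA6 by 2.26, CDX1 by 2.24, FOXA1 by 2.22 and HNF4G by 2.03, transcription factors of gut epithelium, lead this list, and NR2F1 was at -1.35. The second GATA6 probe set stood at 0.61. Of 12 uptake genes ACSL1 at 3.24, SLC27A2, a fatty acid transporter and acyl-CoA synthetase, at 2.02 and FABP6, the ileal bile acid binding protein, at 1.93 were higher and 0 were lower. The 2 other FABP6 probe sets stood at 0.01 and 0.06. Of 14 synthesis genes DGAT2, LPIN2 at 1.49 and LPIN1 at 1.26, the last 2 phosphatidate phosphatases, were higher, and SOAT1, which esterifies cholesterol, at -2.17, GPAT3 at -1.16 and LCAT at -1.13 were lower; the second probe set of LCAT stood at 0.36 and that of LPIN2 at 0.49. Among 14 lipid droplet genes FITM2 was higher by 1.06, with its 2 other probe sets at 0.29 and 0.73, and PLIN3 was at -2.74. CLU was at -2.84, with its other probe sets from -2.25 to 0.24, and 0 of 13 assembly genes were called. This comparison shares LS174T-siVec with the LS174T pair and HCT116-Vec with the HCT116 pair.

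**Figure D5:**
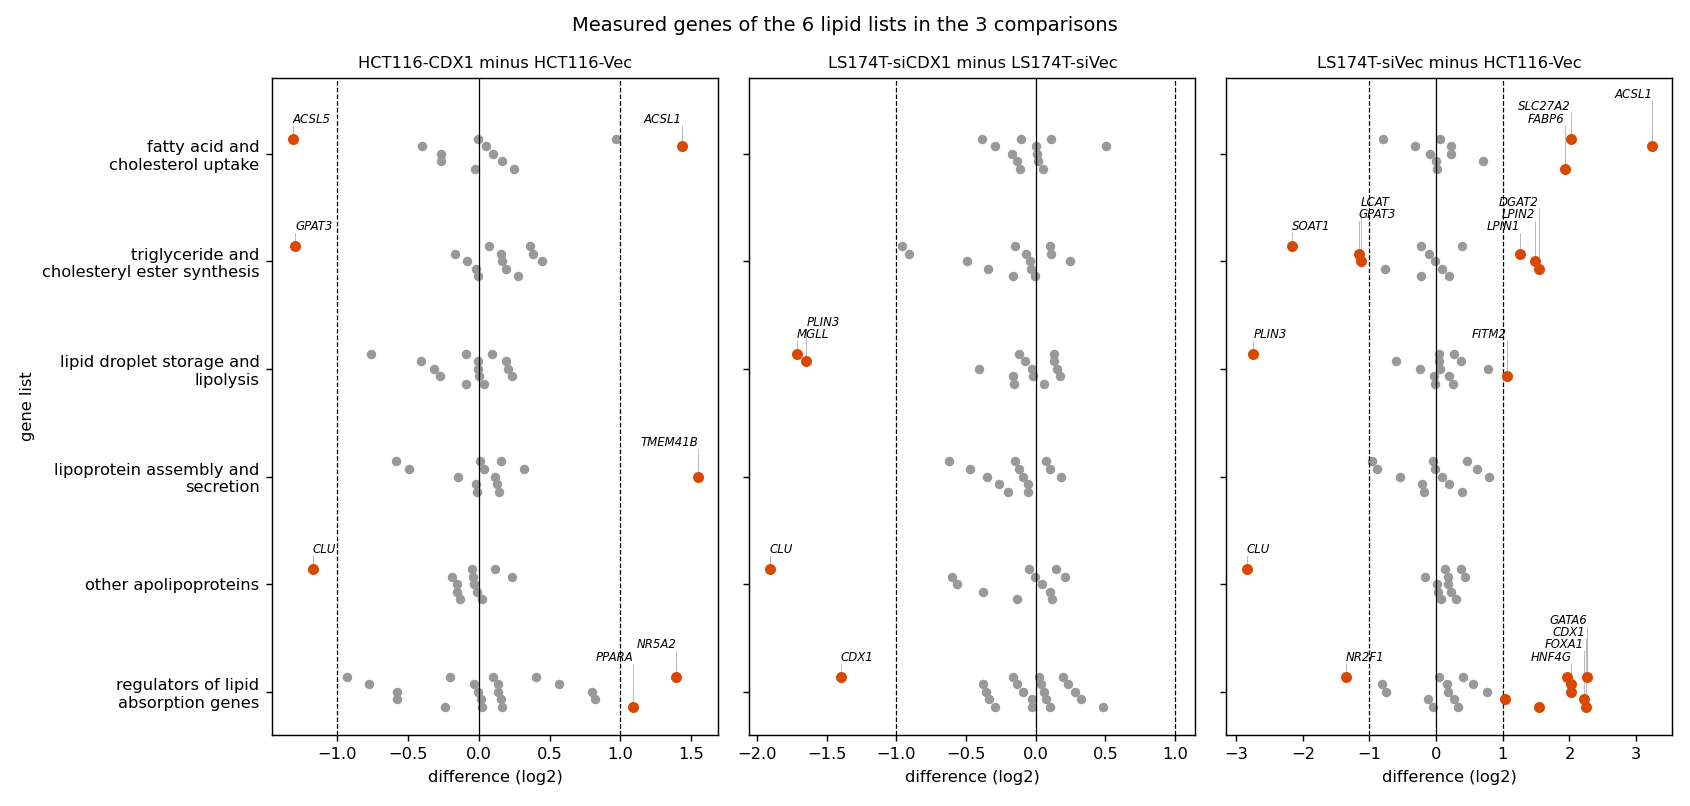
Difference in log2 level (horizontal axis, drawn to its own range in each of the 3 comparisons) of each measured gene of the 6 lipid lists; orange points differ at least 2-fold, with up to 4 named per list and direction, and dashed lines mark 2-fold. In the LS174T pair 4 genes lie below the lower line and 0 above the upper one, while between the vector arrays 15 are higher and 6 lower.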

How the data were processed

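RNA from 4 modified lines was hybridised to 1 array each; per the labels' protocols, biotinylated cRNA was made from 2 µg of total RNA. Per the submitters' processing notes the authors used RMA, which subtracts background, equalises array distributions and summarises probe sets; the sources used here do not give its version or array set. Deposited values are log2 expression of 54675 probe sets, from 3.2 to 14.62, used as deposited.

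The platform annotation named the probe sets: 41097 had 1 gene, 1801 several and 11777 none, and 41043 matched RefSeq genes of GRCh38.p14 by identifier. Differences of 2 arrays were called at 2-fold with a brighter level of at least 6. All 4 arrays were fitted with limma 3.58.1 in R 4.3.3. Other steps used Python 3.11.15, pandas 2.3.3, numpy 2.4.6 and statsmodels 0.14.6. The calls and the fit were tested on simulated data. The members and lists were chosen with earlier results of these data known. Named genes were all members, list genes called (at most 4 per list, comparison and direction, the largest first) and the 3 genes nearest to a member called within a pair. P4HB and KRT20 were named outside this rule. Alternatives were no floor, floors of 7 and 8 (the last added after the data were seen), quantile normalization, equal medians, a loess of span 0.3, the mean of probe sets, no shared probe sets, 1.5-fold and 3-fold thresholds, levels under 6 set to 6, and, in limma, an intensity trend, robust moderation and leaving out the other term.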

Additional observations from a re-analysis of the deposited data

Results flagged for a closer look

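CLU differed between the pairs in relation to the CDX1 label. It was lower by 1.17 on the array labelled HCT116-CDX1, the CDX1-higher array by title, a difference of -1.17 from HCT116-Vec, and it was at -1.91 in LS174T-siCDX1, the CDX1-lower array, against LS174T-siVec. It drew attention because it was at least 2-fold lower on the CDX1-higher array of one pair and on the CDX1-lower array of the other. The other CLU probe sets stood from -1.02 to 0.17 in the HCT116 pair and from -1.08 to -0.26 in the LS174T pair. In each pair 1 of them was called alike. The difference between the pairs was not tested, since each rests on 1 array per group.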

How the results depend on the processing

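The calls of MTTP in the LS174T pair and between the vector arrays held under every alternative run. Several of these could not change them. MTTP has 1 probe set and read 8.14 in LS174T-siVec, so the floors and the choice of probe sets left its differences as they were. Differences of -3.18 and 3.32 also exceed both other fold thresholds. FABP1 between the vector arrays held under all but one: without shared probe sets it stood at 0.49, leaving 1 member higher. At 1.5-fold 1 member, APOA1, was lower in LS174T-siVec. For the pathway lists, without shared probe sets 1 gene fell in the HCT116 pair. At 1.5-fold 7 rose and 7 fell there, 8 fell in the LS174T pair, and 13 were lower between the vector arrays. At 3-fold 0 rose and 0 fell in the HCT116 pair, and 9 were higher and 3 lower between the vector arrays. Over all genes the calls went from 319, 312 and 2278 at 2-fold in the HCT116 pair, the LS174T pair and the vector arrays to 1603, 838 and 4517 at 1.5-fold and 69, 129 and 1114 at 3-fold, as those thresholds imply. The other counts of members called, those of limma at an adjusted p of 0.05 included, stayed within 1.5 times. With an intensity trend in limma the members at an unadjusted p under 0.05 for the line went from 2 to 1. Floors of 7 and 8 left 4 and 2 members measured in the HCT116 pair, 6 and 4 in the others, and moved the member median between the vector arrays from 0.31 to 0.51 and 1.95. MTTP and FABP1 pass these floors only through LS174T-siVec, where they are high, so this move reflects which members the floors left. After quantile normalization or with equal medians 16 of 20 member probe sets were below 0 in the LS174T pair and 10 in the HCT116 pair, against 15 and 8 as deposited. The titles carry no replicate numbers; the limma fit with cell line as a term is the analysis by pair, and without that term the genes at an unadjusted p under 0.05 for the CDX1 label went from 518 to 47, with 0 called in both. Leaving out an array of the limma fit leaves no residual degree of freedom.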

Other observations

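Of the markers of other cell types, 2 separated the lines with lipid-linked or secretory products. LPL, the lipoprotein lipase, which takes fatty acid from circulating triglyceride, read 6.37 in HCT116-Vec, 6.44 in HCT116-CDX1, 8.21 in LS174T-siVec, then 8.72 in LS174T-siCDX1; its second probe set was 2.85 higher in LS174T-siVec than in HCT116-Vec. The other adipocyte markers did not follow it: ADIPOQ lay between 4.17 and 4.25. LYZ, the lysozyme gene, listed as a leukocyte marker and also made by gut epithelium, read 4.97, 5.21, 11.25 and 11.74 in the same order, while PTPRC, the pan-leukocyte gene, lay between 6.51 and 6.85.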
